A study of Mus musculus with 24 samples.

Results

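The nuclear pulldown compared RNA recovered from NIH3T3 nuclei with a miR-29b mimic and with a scrambled mimic, each beside its own nuclear input. It comprised the 4 libraries whose labels name nuclear RNA, of 24 in the series. Of 11568 genes in the table of fractionated RNA, 11361 had at least 20 counts over these 4 libraries and were measured. Recovery of a gene was expressed as the log2 ratio of ratios, that is, its miR-29b pulldown over miR-29b input divided by its scrambled pulldown over scrambled input, and is called nuclear recovery here. There was 1 library per condition, so that no nuclear difference had a replicate check, no p-value was computed, and intervals cover counting error only.

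All groups came from NIH3T3, a line of mouse fibroblasts from embryonic tissue. Cells were transfected by lipid reagent with oligonucleotides carrying 3-cyanovinylcarbazole (CNVK), a nucleoside that crosslinks to a facing pyrimidine under ultraviolet light. The groups were nuclear miR-29b pulldown (CNVK-miR-29b mimic, material recovered with it), nuclear scrambled pulldown (CNVK-scram mimic), nuclear miR-29b input and nuclear scrambled input. Per the labels transfection was at 10 nM, growth medium followed 24 h later, and cells were left another 8 h before harvest. The nuclear libraries were made from 5 ng of RNA, as were all others except whole-cell miR-29b input replicate 4 (6 ng), with the TotalScript kit, whose primers were a mixture of random hexamers and oligo-dT. Every group, input included, received a mimic, and untransfected nuclei were not analysed here. The 4 cytoplasmic libraries and the 16 whole-cell libraries (4 replicates of each condition) served for comparison; nothing in the labels says that the whole-cell replicates were separate cultures.

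MicroRNAs guide Argonaute proteins to mRNAs that pair with the seed, bases 2 to 8 of the miRNA, and the bound mRNA is then repressed and degraded, mostly in the cytoplasm. The miR-29 family is known for repressing collagens and other matrix genes in fibroblasts, the anti-apoptotic gene Mcl1, and enzymes of DNA methylation. Among its members miR-29b is set apart by a short 3′ element, reported in human cells to direct it into the nucleus. The mature mouse sequences, from RefSeq (GRCm38.p6), are shown because the seed is what the predicted sites pair with and the 3′ end is what separates miR-29b from its relatives; capitals mark the seed.
mmu-miR-29b-3p: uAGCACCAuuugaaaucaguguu
mmu-miR-29a-3p: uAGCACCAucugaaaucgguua
mmu-miR-29c-3p: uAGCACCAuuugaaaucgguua
These 3 were the mature miRNAs of 1679 in the table that had this seed. The last 6 bases of miR-29b-3p are aguguu, and those of both relatives are cgguua. Of the 1679 mature miRNAs, 2 end in aguguu and 12 hold it anywhere. MiR-29b-3p is encoded at 2 loci, on chromosome 6 (31063025 to 31063047, minus strand) and chromosome 1 (195037091 to 195037113, plus strand).

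The nuclear libraries held 6927191 listed counts in the miR-29b pulldown, 6002515 in the scrambled pulldown, 10299203 in the miR-29b input and 10928611 in the scrambled input. These were 37.4% to 43.4% of the authors' library totals, and Gm26924, a gene model, took 8.99% to 19.6% of the listed counts. Between 11357 and 11360 of the 11361 genes were detected in each library. The nuclear label was checked against RNAs of known location, in the miR-29b inputs and as log2 nuclear over cytoplasmic level after scaling. The median of 6 nuclear-retained RNAs was 5.63, with Malat1, an abundant noncoding RNA of nuclear speckles, at 7.54, Neat1, the scaffold of paraspeckles, at 6.65, Tug1 at 0.95 and Gm19705 lowest at −0.50. Rpph1, the RNA of the nuclear enzyme RNase P, went the other way at −2.37. The median was −4.95 for 13 mRNAs of the mitochondrial genome and −2.55 for 78 cytosolic ribosomal protein mRNAs. Of 16 fibroblast markers 14 were measured, summing to 14579 to 17299 CPM (TMM-scaled count share of a library) in each nuclear library; no epithelial or leukocyte marker was in the table. Markers of muscle (2 of 7 measured), neurons (1 of 7) and endothelium (1 of 6) summed to 0.549 to 9.50 CPM, and 4 of 7 adipocyte markers summed to 169 to 234 CPM, a level that includes Fabp4 and Pparg. As in any bulk RNA, more RNA per nucleus and more nuclei with the RNA cannot be told apart.

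The highest nuclear recoveries were those of matrix, sterol synthesis and regulatory mRNAs that stood high in the miR-29b pulldown and had inputs within 2-fold of each other. By the rule used (a gene symbol other than a numbered model, at least 50 miR-29b pulldown counts, at least 10 counts in each input and a 95% counting interval above 2-fold), 34 genes were eligible as most recovered with miR-29b, and 0 genes met the mirrored rule for the scrambled mimic. The 0 depends on the exclusion of numbered models. Gm26870 (interval −2.44 to −1.92), Gm21738 (−3.15 to −2.55), Gm10718 (−3.04 to −1.64) and Gm10222 (−2.95 to −1.47) met the other conditions for the scrambled mimic. So did Gm10801 (−2.28 to −1.50) and Gm10800 (−1.55 to −1.23), and further models may meet them. Gm15564 (2.00 to 3.01) met those for miR-29b and was left out in the same way. Over all genes 201 (1.77%) were at least 2-fold higher and 241 (2.12%) at least 2-fold lower. At 4-fold the counts were 14 (0.123%) higher and 23 (0.202%) lower. The scaling decided this balance: with the authors' library totals in place of TMM (a scaling that takes most genes as level), the median of all genes was 0.26 and 429 genes were 2-fold higher against 136 lower. A slightly negative recovery can thus lie above 0 under those totals. Of the 241 lower genes, 223 had fewer than 50 counts in some nuclear library, as did 121 of the 201 higher genes.

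Hmgcs1, which encodes the cytosolic HMG-CoA synthase of the cholesterol pathway, was the most recovered gene of the rule. Its level was 2074 CPM in the miR-29b pulldown, against 372 CPM in the scrambled pulldown, while the inputs held 400.3 CPM with miR-29b and 407 CPM with the scrambled mimic. The miR-29b pulldown alone stood apart, and the inputs were level. Its nuclear recovery was 2.50 on the log2 scale (counting interval 2.42 to 2.58), or 5.66-fold. Insig1, which restrains sterol synthesis and carries a predicted site, was named after its values were seen and gave 0.13 (−0.15 to 0.42), with 40.2 and 38.5 CPM in the miR-29b and scrambled pulldowns.

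The type IV collagens and the laminin chain Lamc1, structural parts of basement membranes, were also among the 10 highest, with Arf2 between Hmgcs1 and Col4a1. Col4a1 (chromosome 8, 11198423 to 11312889, GRCm38.p6) had 3169 CPM in the miR-29b pulldown, against 864 CPM in the scrambled pulldown, with 672 CPM in the miR-29b input and 968 CPM in the scrambled input. Its recovery was 2.40 (2.35 to 2.46). Col4a2, which lies head to head with it (11312805 to 11449287) with an overlap of the annotated intervals, had 990 CPM in the miR-29b pulldown, 312 CPM in the scrambled pulldown, 272 CPM in the miR-29b input and 420 CPM in the scrambled input, a recovery of 2.29. For both genes the miR-29b input was the lowest library, so that the pulldowns by themselves differed by less, 1.87 for Col4a1 and 1.66 for Col4a2. Reads in the shared stretch could be assigned to either gene. Col4a5, on the X chromosome, had 1054 CPM in the miR-29b pulldown and 204, 212 and 199 CPM in the scrambled pulldown, the miR-29b input and the scrambled input, and a recovery of 2.28. Lamc1 had 771 CPM in the miR-29b pulldown, 202 CPM in the scrambled pulldown, 150 CPM in the miR-29b input and 203 CPM in the scrambled input, and a recovery of 2.37 (2.26 to 2.49). In each of these basement membrane genes the miR-29b pulldown was above all 3 other nuclear libraries.

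The other 5 of the 10 most recovered genes have varied roles. Arf2, a small GTPase of vesicle traffic, had 36.3 CPM in the miR-29b pulldown, 7.57 CPM in the scrambled pulldown, 9.53 CPM in the miR-29b input and 11.8 CPM in the scrambled input (recovery 2.49, 2.05 to 3.09). Pxdn, a peroxidase that crosslinks collagen IV, had 192 and 59.8 CPM in the miR-29b and scrambled pulldowns and 49.6 and 67.6 CPM in their inputs (recovery 2.12). Trim32, a ubiquitin ligase, had 68.4 and 16.2 CPM in the miR-29b and scrambled pulldowns, and a recovery of 2.13. Nap1l3, of the nucleosome assembly protein family, and Zfp46, a zinc finger gene, rested on 30.9 and 22.8 CPM in the miR-29b pulldown against 7.03 CPM each in the scrambled pulldown. Their recoveries were 2.23 and 2.01, with counting intervals of 1.71 to 2.91 for Nap1l3 and 1.53 to 2.64 for Zfp46. Trim32, Nap1l3 and Zfp46 carry no predicted site in the authors' table, while the other 7 of the 10 do.

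**Figure D1:**
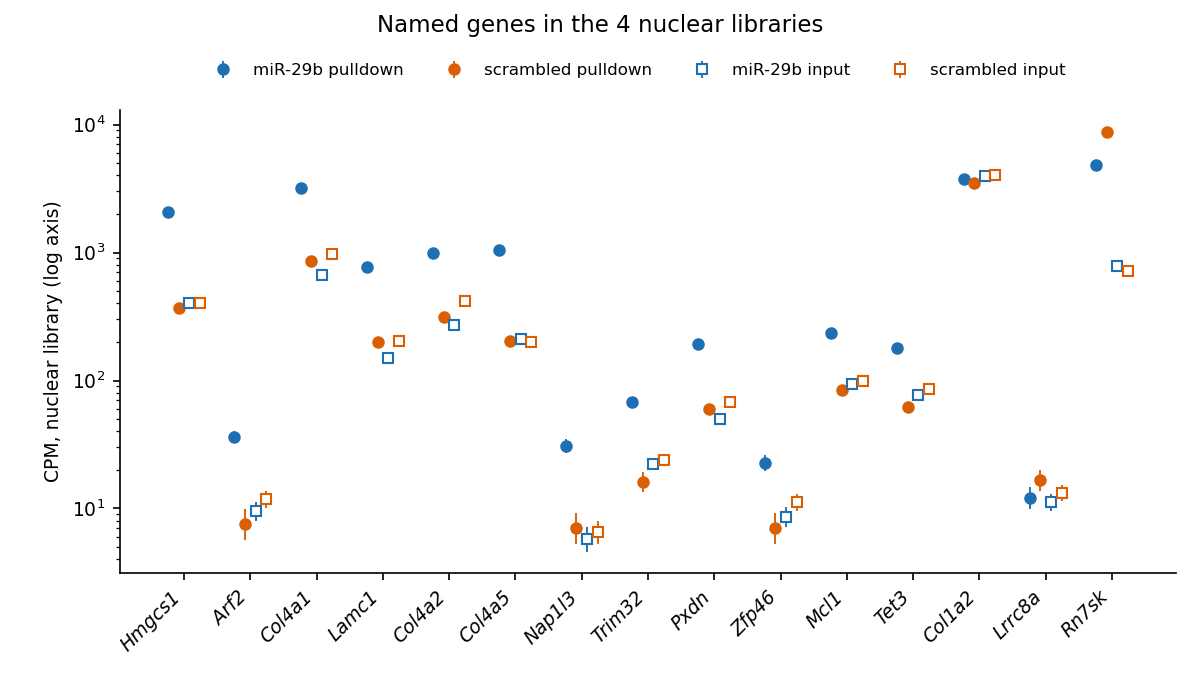
CPM (TMM-scaled, log axis) of 15 named genes in the nuclear miR-29b pulldown, scrambled pulldown, miR-29b input and scrambled input; bars are 95% Poisson intervals of the count and cover counting error only. From Hmgcs1 to Tet3 the miR-29b pulldown lies above the 3 other libraries, whereas Col1a2 and Lrrc8a are close to level and Rn7sk is highest in the scrambled pulldown at 8774 CPM.

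Known miR-29 targets were recovered to very different extents. A list of 94 reported targets had 75 entries measured (Hdac4 is listed under 2 gene identifiers), with a median nuclear recovery of 0.46 against −0.0025 over all genes. Of these 75, 66 were above 0, 16 were at least 2-fold higher and 0 were at least 2-fold lower. The range ran from Col4a1 at 2.40 to Efna2, an ephrin ligand, at −0.97. Efna2 rested on 17 and 19 counts in the miR-29b and scrambled pulldowns and 19 and 10 counts in their inputs. Tet1 was next lowest at −0.49. Inputs of the 75 entries were level, with a median miR-29b input over scrambled input of −0.01. Mcl1, the anti-apoptotic Bcl2 relative, had 237 CPM in the miR-29b pulldown, 84.8 CPM in the scrambled pulldown, 94.0 CPM in the miR-29b input and 98.3 CPM in the scrambled input, and a recovery of 1.54 (1.38 to 1.71). Bak1, a pore-forming member of the same family, was at 1.84 with 60.2 and 27.0 CPM in the miR-29b and scrambled pulldowns and 18.3 and 30.0 CPM in their inputs. Of 12 Bcl2 family genes measured these 2 passed 2-fold, and the median was 0.21.

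Among 17 genes of DNA methylation and demethylation measured, Tet3 alone passed 2-fold. Tet3, which oxidises methylated cytosine, had 179 and 62.1 CPM in the miR-29b and scrambled pulldowns and 77.6 and 86.5 CPM in their inputs, a recovery of 1.67 (1.49 to 1.87), although the authors' table marks no site in it. Dnmt3a, a de novo methyltransferase, gave 0.23 (−0.04 to 0.50), Tdg, the glycosylase that removes oxidised cytosines, 0.33 (−0.35 to 1.08), and the median of 17 such genes was 0.23. Dnmt3b was not among the measured genes. The intervals of Dnmt3a and Tdg include 0. Those of Mbd3 at 0.67 (0.30 to 1.06) and Gadd45a at −0.53 (−1.03 to −0.06), also in the list, do not include 0. All cover counting error only, so they cannot decide whether a gene differed. In whole cells the spread of such a ratio between single libraries was 2.28 for Tet3, 1.40 for Dnmt3a and 1.03 for Tdg. It was 0.64 for Mbd3 and 0.99 for Gadd45a.

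Among the collagens, fibrillar chains gave lower recoveries than several type IV, VI and VIII chains. The 6 fibrillar collagens measured of 11 had a median of 0.73, all above 0, and 1 of them, Col5a3 at 1.39, passed 2-fold. Col3a1 had 2960.1 and 1414 CPM in the miR-29b and scrambled pulldowns and 1485 and 1254 CPM in their inputs, a recovery of 0.82. Col1a1, the first chain of type I collagen, was at 0.64 and its partner Col1a2 at 0.12 (0.10 to 0.15). For Col1a2 the 4 libraries were level, at 3771 CPM in the miR-29b pulldown, 3523 CPM in the scrambled pulldown, 3969 CPM in the miR-29b input and 4042 CPM in the scrambled input. The 11 other collagens measured of 19 had a median of 1.16, with 6 at least 2-fold higher: Col4a1, Col4a2, Col4a5, Col6a2, Col6a3 and Col8a1. Col6a3, a chain of type VI collagen named after its values were seen, had 6383 CPM in the miR-29b pulldown against 1896 CPM in the scrambled pulldown, while its inputs held 2114 CPM with miR-29b against 1870 CPM with the scrambled mimic, a recovery of 1.57 with no predicted site in the table. Of 27 elastic fibre, crosslinking and glycoprotein genes 4 passed 2-fold (Lamc1, Fbn1, Sparc and Emilin2) and the median was 0.09. Fbn1, which encodes the microfibril protein fibrillin, was at 1.38 and Sparc, a collagen-binding glycoprotein, at 1.28; Nid1 and Fn1, further basement membrane and matrix genes, were at 0.02 each.

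Most other gene lists had medians near 0. The 31 genes of the RNA-induced silencing complex and miRNA processing had a median of 0.05, with a range from −0.44 (Ago1) to 0.52 (Parn) and 0 genes past 2-fold. Of 23 p53 targets 1 was 2-fold lower and 0 were higher (median 0.06), and Cdkn1a, the p21 cell cycle inhibitor, was at 0.62 (0.19 to 1.08). Ribosomal protein mRNAs had a median of −0.07 over 78 genes, or 0.19 with the authors' totals. Among nuclear lamina, pore and splicing genes 1 of 24 passed 2-fold, Lmnb1 (lamin B1) at 1.58, with 45.9 CPM in the miR-29b pulldown, 15.1 CPM in the scrambled pulldown, 11.2 CPM in the miR-29b input and 11.3 CPM in the scrambled input. The 6 nuclear-retained RNAs had a median of −0.23, or 0.03 with the authors' totals. Malat1 was at −0.46, with 42360 and 36219 CPM in the miR-29b and scrambled pulldowns and 48826 and 30401 CPM in their inputs. For Malat1 the 2 inputs differed more than the 2 pulldowns did. Neat1 was at 0.13 with 1754 and 1919 CPM in the miR-29b and scrambled pulldowns.

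**Figure D2:**
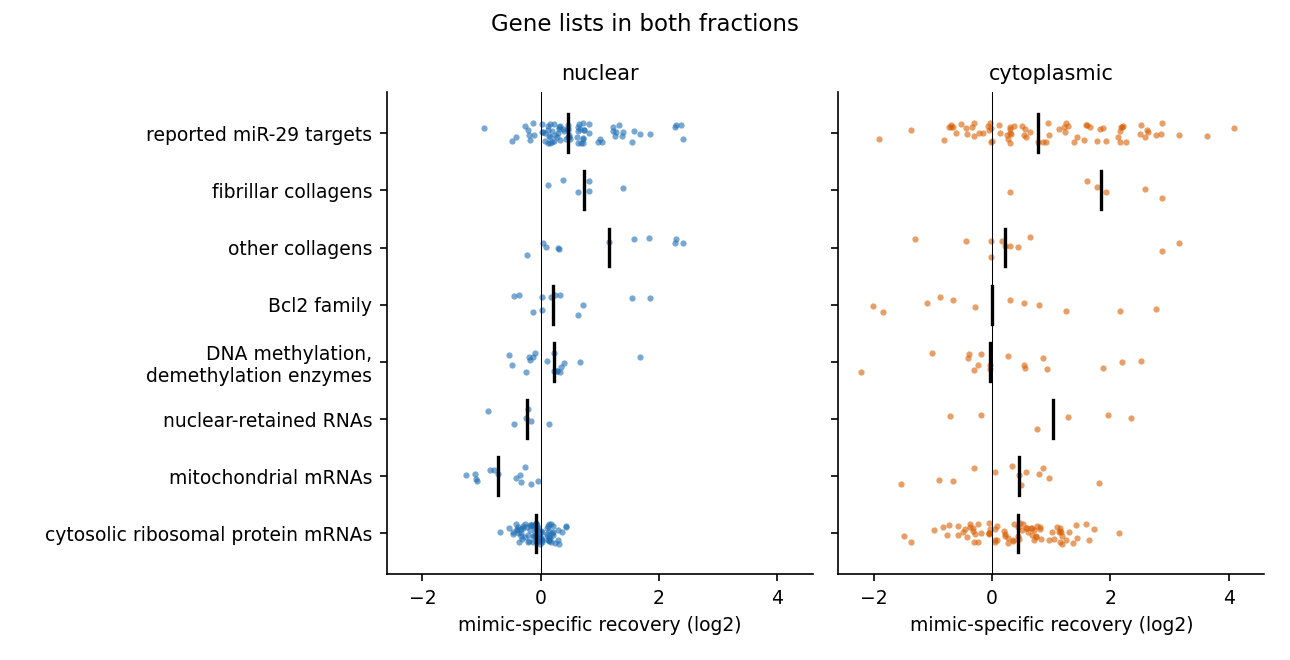
Mimic-specific recovery (log2 ratio of ratios) of each measured member of 8 gene lists, nuclear on the left and cytoplasmic on the right; points are genes, each from 1 library per condition, and black bars are list medians. Reported targets have medians of 0.46 in nuclei and 0.77 in cytoplasm, while collagens other than the fibrillar ones lie at 1.16 in nuclei and 0.21 in cytoplasm.

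Predicted sites were marked by the authors for protein-coding genes, in columns whose names refer to TargetScan, an algorithm that searches 3′ untranslated regions for matches to the seed. Recovery in nuclei was graded by these marks. The 481 genes with any site had a median nuclear recovery of 0.26, against −0.0059 for 10091 genes with no site. Of the site genes 43 (8.94%) were at least 2-fold higher, against 115 (1.14%) of genes with no site, and 2 against 157 were at least 2-fold lower. The 140 genes with the 8mer mark, the longest seed match, had a median of 0.41 and 20 (14.3%) past 2-fold. The 158 genes with the context mark had a median of 0.43, and the 101 with both marks 0.44. The 284 site genes with neither mark had a median of 0.18, with 18 (6.34%) past 2-fold. The grading lay in the pulldowns: for genes with any site the median miR-29b pulldown over input was 0.19 and the scrambled pulldown over input −0.09, and their miR-29b input over scrambled input was 0.05. Site genes made up 27.2% of the 158 protein-coding genes at least 2-fold higher, so that most genes past the threshold carried no mark.

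**Figure D3:**
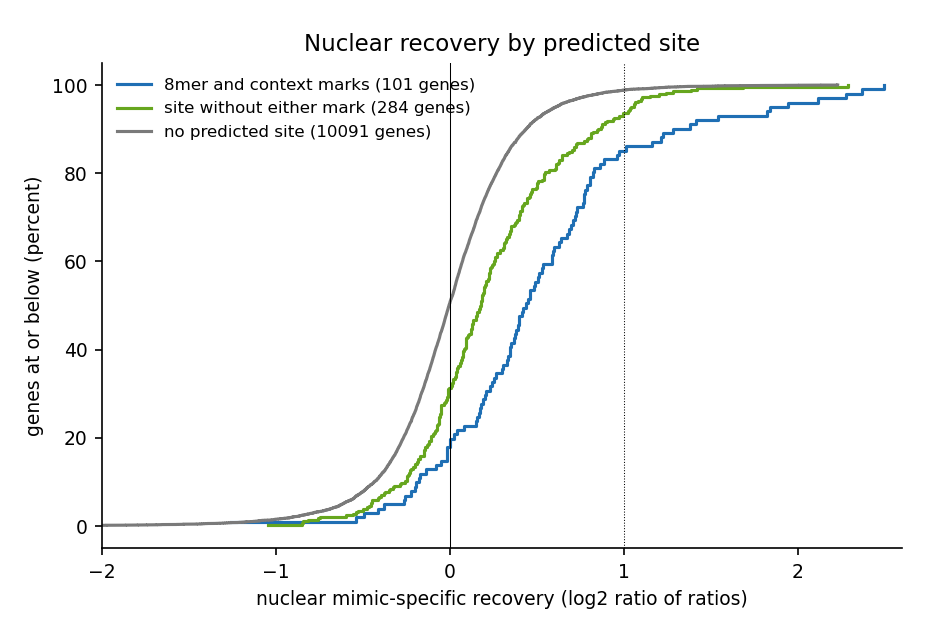
Cumulative share of protein-coding genes (percent) at or below each nuclear recovery (log2 ratio of ratios), for genes with both the 8mer and context marks, genes with a site but neither mark, and genes with no predicted site; the dotted line marks 2-fold. The median is 0.44 for both marks, 0.18 for neither mark and −0.0059 for no site, and the curves separate over most of the range.

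Of the 34 most recovered genes 18 (52.9%) carried a predicted site, compared with 4.55% of protein-coding genes. The latter share covers all measured protein-coding genes, including those with too few counts to be eligible. The 34 genes lay between 1.16 and 2.50, and in all 34 the inputs were within 2-fold. Unequal inputs still added to some recoveries. Maz, picked after its values were seen, was at 1.30, with a log2 difference of 0.54 between the pulldowns and −0.76 between the inputs. Genes among the 34 with no mark included Hbp1 and, named after their values were seen, Tsc22d3 and Rbm15. Tsc22d3, a glucocorticoid-induced regulator, had 99.3 and 31.7 CPM in the miR-29b and scrambled pulldowns and a recovery of 1.92. Rbm15, an RNA-binding protein, had 99.3 and 35.1 CPM in these pulldowns and a recovery of 1.46, and Hbp1, a transcriptional repressor, 149 and 63.5 CPM and 1.32. Vcl, the adhesion protein vinculin, also named after its values were seen, carries a site and had 1059 CPM in the miR-29b pulldown, 366 CPM in the scrambled pulldown, 341 CPM in the miR-29b input and 380 CPM in the scrambled input, a recovery of 1.69. Site genes were also grouped by where their input RNA lay: the median recovery was 0.23 for 164 site genes at least 2-fold more abundant in the nuclear than the cytoplasmic input, 0.31 for 255 within 2-fold and 0.28 for 62 at least 2-fold less abundant.

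The pulldowns and the inputs were also set against each other directly. The miR-29b pulldown was at least 2-fold above the scrambled pulldown for 141 genes (1.24%) and below it for 204 (1.8%). With the authors' library totals these counts were 193 above and 129 below. The miR-29b input was at least 2-fold above the scrambled input for 38 genes (0.334%) and below for 44 (0.387%), or 24 above and 74 below with those totals. Of the 201 genes with at least 2-fold higher recovery, 94 differed 2-fold between the pulldowns and 10 differed 2-fold the opposite way between the inputs. Gm15564, a gene model named by its difference between fractions, was of the second kind: its pulldowns were close, at 19.9 CPM with miR-29b and 15.3 CPM with the scrambled mimic, and its inputs were 4.87 CPM with miR-29b and 21.2 CPM with the scrambled mimic. Its recovery of 2.40 was thus set by the inputs. Rsad2, an interferon-induced antiviral gene, had 25.4 CPM in the miR-29b input against 59.6 CPM in the scrambled input, and a recovery of 0.66.

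Small structural RNAs and some gene models stood above input in the pulldowns of both mimics. In nuclei 264 genes (2.32%) were at least 2-fold above input in the miR-29b pulldown, and 106 (0.933%) below. In the scrambled pulldown 328 genes (2.89%) were above and 62 (0.546%) below, or 167 above and 234 below with the authors' totals. The 12 genes of the class misc_RNA, the annotation's class for small structural RNAs, had median pulldown over input ratios of 2.24 with miR-29b and 2.70 with the scrambled mimic. Rn7sk, the 7SK RNA that holds the elongation factor P-TEFb inactive, had 4868 and 8774 CPM in the miR-29b and scrambled pulldowns, against 784 CPM in the miR-29b input and 712 CPM in the scrambled input. Both pulldowns were far above both inputs, and the recovery was −0.99. Rmrp, the RNA of the RNase MRP enzyme, and Rpph1, that of RNase P, were at −0.35 and −0.24 (Rpph1 lies above 0 with the authors' totals), with the scrambled pulldown over its input at 2.21 and 2.79. Genes of this class have near-identical copies elsewhere in the genome, and the authors' handling of shared reads is not stated in the labels or headers.

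Several of the genes highest over input with the scrambled mimic were gene models with no role assigned here. Gm26870 had 113 CPM after miR-29b pulldown, against 1143 CPM after scrambled pulldown, while its inputs held 13.7 CPM with miR-29b and 30.5 CPM with the scrambled mimic. Its scrambled pulldown over input was 5.21 and its recovery −2.20. Gm10801 and Gm10800 followed the same pattern, with 28.0 and 178 CPM in the miR-29b pulldown against 304 and 1519 CPM in the scrambled pulldown, and recoveries of −1.93 and −1.40. Gm21738, found after values were seen, was at −2.83, with 30.3 and 218 CPM in the miR-29b and scrambled pulldowns and 19.1 CPM in each input. These 4 models were higher in the scrambled pulldown than in any other nuclear library. In whole cells the spread of their recovery between replicates was 3.59 to 4.73 on the log2 scale, larger than these values. The mRNAs of the mitochondrial genome also were lower with miR-29b: 0 of 13 were above 0, 4 were at least 2-fold lower and the median was −0.72, whereas with the authors' totals 2 were above 0, 0 were 2-fold lower and the median was −0.47. The gene mt-Co3, for a cytochrome oxidase subunit, had 23.9 CPM in the miR-29b pulldown, 52.3 CPM in the scrambled pulldown, 19.9 CPM in the miR-29b input and 17.9 CPM in the scrambled input, a recovery of −1.26.

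**Figure D4:**
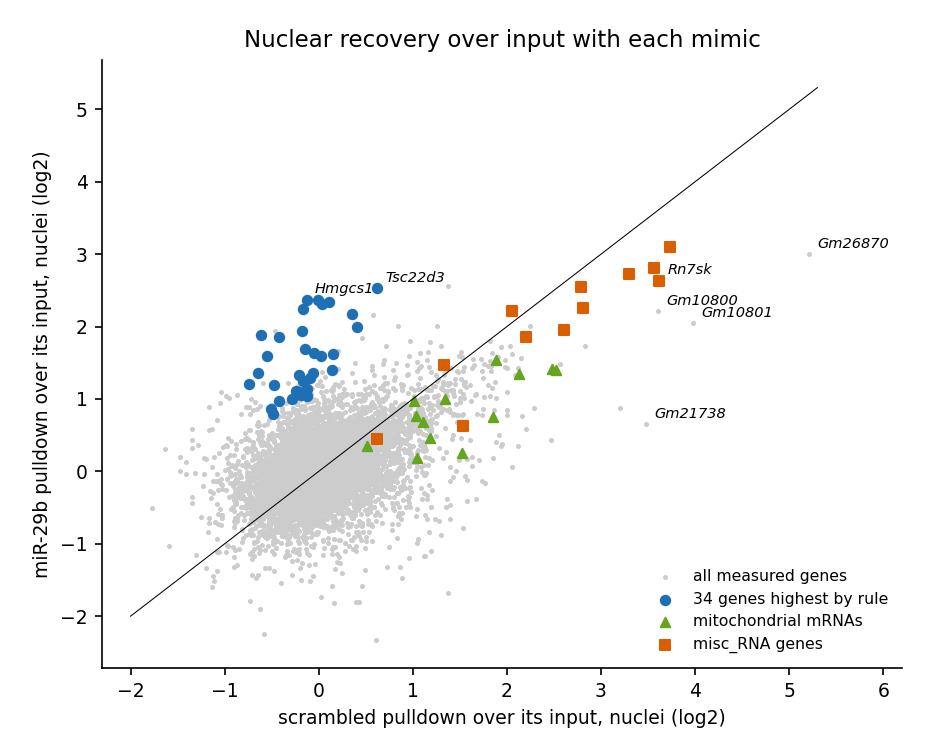
Log2 pulldown over input in nuclei for each measured gene, miR-29b mimic on the vertical axis and scrambled mimic on the horizontal axis, with the line of equality; each point rests on 1 library per condition. The 34 most recovered genes lie above the line by the rule that chose them, with the scrambled mimic between −0.74 and 0.62. The misc_RNA genes and mitochondrial mRNAs lie above 0 with both mimics, and Gm26870 lies furthest right at 5.21.

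Nuclear recovery was then set beside the cytoplasmic libraries of the same design. The cytoplasmic ratios were far more spread, with an SD over genes of 0.44 in nuclei and 1.09 in cytoplasm, and 2193 genes (19.3%) at least 2-fold higher and 1878 (16.5%) lower in cytoplasm. The scrambled pulldown of the cytoplasm was the shallowest of the 8 fraction libraries, with 5320421 listed counts. Nuclear RNAs also stood high in the cytoplasmic pulldowns, although the fraction label was checked in inputs only. Malat1 had 5802 and 8812 CPM in the cytoplasmic miR-29b and scrambled pulldowns, against 262 and 243 CPM in their inputs. Neat1 had 432 and 737 CPM, against 16.3 and 24.4 CPM. The source of this RNA was not tested. Across 11361 genes, whose ratios share no library, r between the fractions was −0.03 (Spearman's rho −0.10), and across the 481 site genes it was 0.23. Of the 34 most recovered nuclear genes 24 (70.6%) were also at least 2-fold higher in cytoplasm. Hmgcs1 was at 2.50 in nuclei and 2.94 in cytoplasm, Col4a5 at 2.28 and 3.15, and Mcl1 at 1.54 and 2.77. Nap1l3 was at 2.23 and 5.04, the cytoplasmic value resting on 2 counts in the scrambled pulldown.

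Some of the most recovered nuclear genes were near 0 in cytoplasm, Col4a1, Col4a2 and Lamc1 among them. Col4a1 was at 2.40 in nuclei and 0.30 in cytoplasm, where it had 459 CPM in the miR-29b pulldown, 485 CPM in the scrambled pulldown, 241 CPM in the miR-29b input and 314 CPM in the scrambled input. In cytoplasm both pulldowns of Col4a1 were thus above both inputs. Lamc1 was at 2.37 and 0.25, Col4a2 at 2.29 and −0.03, Bak1 at 1.84 and 0.55, and Col5a3 at 1.39 and 0.30 in nuclei and cytoplasm. Other basement membrane genes did not share this: Col4a5 was high in both fractions, and the laminin chain Lamb1 was at 0.28 and −0.66, the proteoglycan gene Hspg2 at 0.46 and −1.91, Nid1 at 0.02 and −0.82, and Col18a1 at 0.08 and −1.31. Of the 6 fibrillar chains, 5 had larger values in cytoplasm, such as Col3a1 at 0.82 in nuclei and 2.87 in cytoplasm and Col1a2 at 0.12 and 1.78; Col5a3 was the exception. With 1 library per condition in each fraction these differences could not be tested. Over all genes 2106 (18.5%) were at least 2-fold higher in nuclei than in cytoplasm and 2453 (21.6%) lower, or 1466 and 3169 with the authors' totals.

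**Figure D5:**
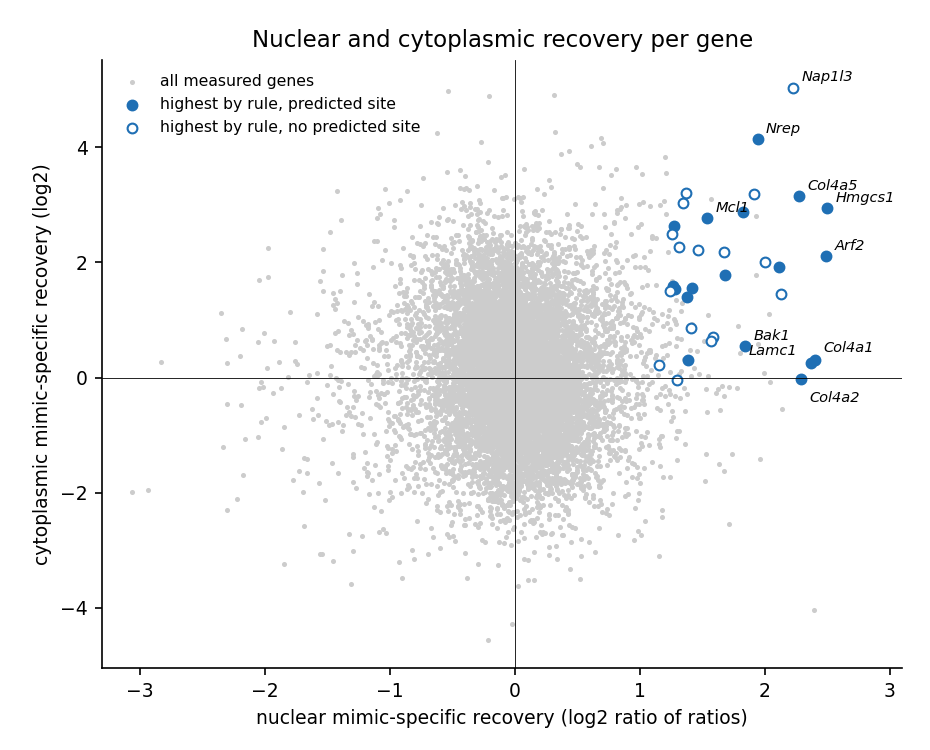
Mimic-specific recovery (log2 ratio of ratios) of each measured gene in nuclei (horizontal axis) and cytoplasm (vertical axis), with the 34 most recovered nuclear genes in blue, filled where the authors' table marks a predicted site. Of the 34, 24 are at least 2-fold higher in cytoplasm as well; Col4a1, Col4a2 and Lamc1 lie near 0 there, and all genes together form a cloud that is wider vertically (SD 1.09 against 0.44).

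The whole-cell libraries, which have replicates and did not enter the rule, gave a yardstick. The same ratio of ratios over 4 replicates per condition was at least 2-fold higher for all 34 most recovered nuclear genes, from 1.57 (Lmnb1) to 4.72 (Nrep), against 17.7% of 11358 genes in both tables; this count was also 34 with each replicate left out in turn. The 11358 genes were not matched to the 34 in counts. Of the 201 nuclear genes at least 2-fold higher, 104 (51.7%) were at least 2-fold higher in whole cells and 24 (11.9%) at least 2-fold lower. Of the 241 lower, 59 (24.5%) were at least 2-fold lower in whole cells and 15 (6.22%) at least 2-fold higher. Of all genes 17.7% were at least 2-fold higher in whole cells and 10.2% lower. The spread to be expected of a ratio from 1 library per condition, combined from the SDs of the 4 whole-cell groups, had a median over genes of 0.69, or 0.42 from replicates 1 to 3. For the 201 higher genes this median was 1.04 (0.63 from replicates 1 to 3), and for the 241 lower genes 1.10 (0.76). The 2-fold threshold is 1 on the same log2 scale. Hmgcs1, with a spread of 1.62, had 1396 to 3267 CPM in the whole-cell miR-29b pulldowns, 116 to 134 CPM in the scrambled pulldowns, 82.5 to 692 CPM in the miR-29b inputs and 75.2 to 110.0 CPM in the scrambled inputs. Its pulldown groups did not overlap, and the 692 CPM came from replicate 4, which stood apart for several genes, while the other 3 were at 82.5 to 88.7 CPM. Col4a1 had 1306 to 3041 CPM in the miR-29b pulldowns and 282 to 349 CPM in the scrambled pulldowns, and its whole-cell ratio of 2.80 had a spread of 1.15. For Mcl1 the ratio was 4.43, with 1394 to 2244 CPM in the miR-29b pulldowns against 48.8 to 60.0 CPM in the scrambled pulldowns. Lrrc8a, marked by a whole-cell ratio of −3.44, was at −0.21 in nuclei (−0.70 to 0.26), with 12.1 and 16.6 CPM in the miR-29b and scrambled pulldowns and 11.2 and 13.2 CPM in their inputs, and at −4.56 in cytoplasm. Kctd5, a site gene with a whole-cell ratio of 2.85, was at −0.17 in nuclei (−0.60 to 0.24), and Col1a2, with 2.51 in whole cells, was level in nuclei as above.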

How the data were processed

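Members, gene lists and the naming rule were chosen with earlier results of these data known. STAR 2.3.0 and the build mm10 were used, per the submitters' processing notes; the labels and headers state no counting tool, strand setting or gene filter, and the header of the whole-cell table names gencode genes with no version. The authors deposited whole-number counts per gene and library, and CPM values equal to the count plus 1 over a library total above the listed counts. The file deposited for nuclei matched that for cytoplasm in every byte (0 differed) and holds both fractions. Of 11579 lines, 11 repeats were dropped. TMM factors were computed over the 8 fraction libraries with edgeR 4.0.16 in R 4.3.3, and log2 CPM used a prior count of 5. Printed CPM are TMM-scaled without the prior. Counting intervals come from the 4 raw counts by a normal approximation, those of single counts from the exact Poisson distribution, both at 95%. The design allowed no test. The ratio calculation was tested on simulated data with counting error only, and so without any spread between libraries. Of 11161 genes left unchanged there, 1.10% passed 2-fold in either direction. Of the genes made 4-fold higher or lower in the miR-29b pulldown, 100% did.

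Named were the 10 highest and 10 lowest recoveries among eligible genes, 8 at each end of the nuclear minus cytoplasmic difference, 6 genes of the scrambled pulldown over input, up to 3 of each of 25 lists, and 18 fixed genes; no gene was eligible as lowest. Some of these are not reported here, and other genes named were chosen after their values were seen. Coordinates are from a gene table of GRCm38.p6, in which 10493 of 11348 symbols matched. Predicted sites are marks (other values) in the authors' deposited whole-cell table, available for 10572 of 10573 protein-coding genes. Alternatives were RLE and upper-quartile factors, the authors' totals, prior counts of 1 and 20, no filter or 100 counts, 4-fold, and leaving out each whole-cell replicate.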

Additional observations from a re-analysis of the deposited data

Results flagged for a closer look

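Replicate 4 of the whole-cell libraries stood apart from the others for genes that the nuclear account turns on. Hmgcs1 was at 692 CPM in miR-29b input replicate 4, against 82.5 to 88.7 CPM in the other 3, and at 75.2 CPM in scrambled input replicate 4, against 104 to 110.0 CPM in the other 3. Col4a1 was at 1306 CPM in miR-29b pulldown replicate 4, against 2767 to 3041 CPM in the other 3, and at 109.5 CPM in scrambled input replicate 4, against 420.1 to 448 CPM. Col4a1 was also at 349 CPM in scrambled pulldown replicate 1, against 282 to 287 CPM in the other 3. Lamc1 was at 74.5 CPM and Mcl1 at 312 CPM in miR-29b input replicate 4, against 30.4 to 34.0 CPM and 78.5 to 84.5 CPM. Whole-cell miR-29b input replicate 4 was made from 6 ng of RNA per the labels, against 5 ng for the other 23 libraries; the part of this in these values was not tested. Of 16 groups examined, that is, Hmgcs1, Col4a1, Lamc1 and Mcl1 each in every whole-cell condition, 7 had such a gap. The cutoff used is one that normally distributed samples pass in about 1 in 20 groups. Because these genes were read from the same libraries, the groups were not independent and the 7 cannot be held against that rate. All 34 most recovered nuclear genes remained at least 2-fold higher in whole cells without replicate 4.

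Recovery went opposite ways by at least 2-fold in nuclei and cytoplasm for 5 named genes, some of them named for their difference between fractions, and the difference was not tested. Over all genes, 32 of the 201 higher in nuclei (15.9%) were at least 2-fold lower in cytoplasm, against 16.5% of all genes, and 40 of the 241 lower (16.6%) were at least 2-fold higher, against 19.3%. Gm15564 was at 2.40 in nuclei and −4.05 in cytoplasm, Plekho1 at 1.15 and −3.10, Zfp825 at −1.39 and 2.74, 1700008I05Rik at −1.98 and 1.75, and mt-Co3 at −1.26 and 1.82. Nuclear levels of Plekho1, Zfp825 and 1700008I05Rik were at most 9.50 CPM in any library.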

How the results depend on the processing

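No paired analysis was possible because each nuclear condition had 1 library and no test was made. Among values past 2-fold, no named gene and no list or class median changed direction in the alternatives run. Values under 2-fold were not screened in this way, and Rpph1, for example, lies above 0 with the authors' totals. The direction of genes that were not named was not checked. Counts past 2-fold moved with scaling, prior count and filter, and the cause was not tested. With the authors' totals, recovery had 429 genes higher and 136 lower, pulldown against pulldown 129 lower, inputs 24 higher and 74 lower, and scrambled pulldown over input 167 higher and 234 lower; site genes had a median of 0.52, 80 higher and 1 lower, and ribosomal protein mRNAs were at −2.88 and −2.64 in nuclear over cytoplasmic input with miR-29b and scrambled mimic. With upper-quartile factors, 2562 genes were higher in nuclei than in cytoplasm and 2018 lower. With a prior count of 1, the pulldowns had 315 lower, the inputs 83 higher and 99 lower, and pulldown over input 196 lower with miR-29b and 110 with the scrambled mimic. With a prior count of 20, recovery had 86 higher and 50 lower, the pulldowns 70 and 41, the inputs 5 and 14, miR-29b pulldown over input 152 and 18, scrambled pulldown over input 182 and 5, and site genes 0 lower. With at least 100 counts, recovery had 129 higher and 89 lower, the pulldowns 96 lower, the inputs 20 higher and 27 lower, miR-29b pulldown over input 51 lower, scrambled pulldown over input 217 higher and 31 lower, and site genes 1 lower. At 4-fold recovery had 14 higher and 23 lower. A filter of at least 1000 counts, chosen after seeing the data, left 47 higher and 5 lower. Of 27 named genes at least 2-fold higher, all 27 stayed so with the other factors, totals, filters and a prior of 1, and 26 with a prior of 20; of 13 lower, 10 stayed with the authors' totals and 11 with a prior of 20. The whole-cell spread of 0.69 was 0.42 to 0.78 with a replicate left out, the lowest without replicate 4.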

Other observations

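Further gene lists, not described above, showed small nuclear recoveries and, for induced genes, lower miR-29b inputs. Of 24 interferon-stimulated genes 23 were measured, with a median nuclear recovery of 0.12 and 0 past 2-fold, while their median miR-29b input over scrambled input was −0.49. Oasl2, an antiviral gene of that list, had 446 and 380.3 CPM in the miR-29b and scrambled pulldowns and 492 and 583 CPM in their inputs. Of 12 immediate early genes measured 1 was 2-fold lower and 0 were higher, with a median recovery of 0.15 and a median input ratio of −0.39. Klf4, a transcription factor of that list with a predicted site, had 23.3 and 14.3 CPM in the miR-29b and scrambled pulldowns and 12.1 and 11.5 CPM in their inputs, a recovery of 0.63, against 2.21 in cytoplasm.

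Nuclear-encoded respiratory chain mRNAs had a median recovery of 0.03 over 29 genes, ER and secretory mRNAs −0.11 over 20, and snoRNA host genes −0.25 over 8. With the authors' totals these medians were 0.30, 0.15 and 0.02, so that the sign of the last pair depends on the scaling. In cytoplasm 7 of the 8 snoRNA host genes were at least 2-fold higher, where 19.3% of all genes were. In nuclei 0 of the 8 were, where 1.77% of all genes were, so that these counts rest on unlike backgrounds. No test of the difference could be made. Snhg4, the noncoding host of a small nucleolar RNA, had 36.3 and 47.1 CPM in the nuclear miR-29b and scrambled pulldowns and a recovery of −0.39, against 3.30 in cytoplasm.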
